A study of Mus musculus with 10 samples.

Results

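Dbp, Tef and Hlf encode the PAR bZIP factors, and their messenger RNAs (rows dbp, tef and hlf) were followed here in single hepatocytes of the mouse liver over 4 times of day and along the liver lobule. The members were taken by name, 3 of the 14812 gene rows in the data, and all 3 passed the filter on low values, a mean level of at least 3 CPM. A UMI, or unique molecular identifier, is a tag that counts 1 captured RNA molecule once, and CPM is the UMI count of a gene scaled to a library total of 1000000 UMIs. The 10 libraries were made from male C57BL/6 mice aged 3 months, fed ordinary chow without restriction, and held 18378 hepatocytes in all. No genotype or drug differed between the groups: every mouse was anaesthetised with ketamine and xylazine, and hepatocytes were freed by collagenase perfusion and purified on Percoll before droplet sequencing of RNA 3' ends. Time is given as zeitgeber time (ZT), where ZT0 is by convention the start of the light phase, with 3 libraries each for ZT0 and ZT12 and 2 each for ZT6 and ZT18, named A, B and C. How many mice stand behind a library is not in the labels, so the errors below measure the spread between libraries.

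PAR bZIP proteins are leucine zipper transcription factors that bind D-box elements and switch on their target genes. In the circadian clock, the activators CLOCK and BMAL1 bind E-box elements and drive the PAR bZIP genes by day, and the repressor NFIL3 (E4BP4) binds the same D-boxes and opposes them. In liver these 3 factors are known for carrying clock time to genes of drug and xenobiotic handling, haem synthesis and bile acid and lipid metabolism.

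The libraries held 1454623 to 7144803 UMIs, with a median of 1588 to 2662 UMIs per cell, so that a level of 1 CPM in the shallowest library stood for between 1 and 2 molecules. All 8 hepatocyte markers were present in every group, with a summed level of 41878 to 77906 CPM. The summed levels of endothelial, macrophage, lymphocyte, neutrophil and stellate marker lists were at most 15.2 CPM in any library, with the endothelial markers Clec4g and Ptprb and the macrophage markers Clec4f, Csf1r, C1qa and C1qb at 0 throughout. Bile duct markers (5 genes) summed to 17.7 to 32.5 CPM at ZT0, 0.773 to 4.27 at ZT6, 3.44 to 6.53 at ZT12 and 11.6 to 17.3 at ZT18, higher at the times when Dbp and Tef were low, and the part of this in their levels was not tested. The defining bile duct marker Krt19 was at 0 in the ZT0, ZT6 and ZT18 libraries. Library ZT18 B stood apart in red cell genes, with 361 CPM against 72.2 to 108 in the other 9. Cells carry running numbers in place of barcodes, so barcodes shared between libraries could not be counted. Both ZT18 libraries, and they alone, carry 10x sample index number 4, so this index and the time ZT18 cannot be told apart.

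The promoters of the members are shown because the clock is known to reach these genes through E-boxes. Each line gives the 250 bases before an annotated RefSeq start (build GRCm38.p6), 5' to 3' on the gene's strand, in lower case with the E-box CACGTG in capitals. The Dbp window is at chr7:45704997-45705246 (plus strand), the 2 Tef windows, for alternative starts, are at chr15:81802423-81802672 and chr15:81811164-81811413 (both plus strand), and the Hlf window is at chr11:90390918-90391167 (minus strand).
Dbp: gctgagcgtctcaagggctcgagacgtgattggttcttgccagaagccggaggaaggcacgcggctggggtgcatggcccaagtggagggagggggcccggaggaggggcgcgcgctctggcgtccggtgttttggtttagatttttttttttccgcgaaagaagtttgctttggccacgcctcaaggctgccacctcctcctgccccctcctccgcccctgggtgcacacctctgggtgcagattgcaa
Tef, upstream start: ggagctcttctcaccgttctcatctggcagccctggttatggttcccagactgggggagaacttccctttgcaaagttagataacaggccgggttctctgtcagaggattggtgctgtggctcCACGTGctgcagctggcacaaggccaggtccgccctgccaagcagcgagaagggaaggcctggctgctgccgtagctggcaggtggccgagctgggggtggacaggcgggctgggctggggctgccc
Tef, downstream start: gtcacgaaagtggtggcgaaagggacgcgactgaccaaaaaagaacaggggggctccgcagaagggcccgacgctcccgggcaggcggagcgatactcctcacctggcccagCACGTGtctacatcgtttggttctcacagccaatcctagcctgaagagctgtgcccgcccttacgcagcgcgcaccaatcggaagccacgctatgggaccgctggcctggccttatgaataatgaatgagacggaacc
Hlf: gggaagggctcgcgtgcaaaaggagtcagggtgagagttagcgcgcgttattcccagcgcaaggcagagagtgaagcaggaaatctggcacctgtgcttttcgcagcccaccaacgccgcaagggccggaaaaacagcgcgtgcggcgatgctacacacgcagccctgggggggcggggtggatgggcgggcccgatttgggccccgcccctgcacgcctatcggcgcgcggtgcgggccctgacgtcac
Both Tef windows held 1 E-box each, beginning 127 bases before the upstream start and 138 bases before the downstream one. The letters CACGTG were in neither the Dbp nor the Hlf window, although known E-boxes of Dbp include intronic ones that lie outside it. Among 32851 RefSeq windows of the same length, 6.02% held CACGTG on either strand, and since this motif reads the same on both strands each match was counted once. The related E'-box CACGTT, which is non-palindromic and was searched on both strands, was in no member window and in 3.85% of all windows. The D-box TTATGTAA (0.819% of windows) and the palindromic form TTACGTAA (0.113% of windows) were also in none of the 4. A match is a stretch of letters and not a measured binding site. Of the 13 other clock genes with a window, 4 held an E-box (Bhlhe41, Ciart, Cry1 and Per1), and of the 15 listed target genes with one, 2 did (Acot4 and Nr1i3). The E'-box was in Cry1, Cry2 and Nr1d1 and the D-box TTATGTAA in Per3. The 15 target genes held neither the E'-box nor either form of the D-box. These are counts of genes, over 17 windows in each list, while the shares above are of windows.

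Dbp went from near absence at dawn to high levels at both ZT6 and ZT12, with no time sampled between them. At ZT0 its level was 2.97, 2.53 and 2.53 CPM in libraries A, B and C, resting on 17, 17 and 15 UMIs. At ZT6 it was 110 and 127 CPM, and at ZT12 it was 74.2, 155 and 128. At ZT18 it was back to 7.86 and 8.62 CPM. Every ZT6 and ZT12 library lay far above every ZT0 and ZT18 library, and the ZT12 values enclosed both ZT6 values. The ZT18 values lay above all ZT0 values. Dbp rose by 5.37 ± 0.32 (log2, SE) from ZT0 to ZT6 (adjusted p = 1.4e-06, quasi-likelihood F-test of edgeR, Benjamini-Hochberg adjusted over all genes, as for every adjusted p below unless another test is named), where 0.718% of the 8908 genes tested were called. From ZT6 to ZT12 the test did not pass, with a difference of -0.04 ± 0.26 (log2, SE, adjusted p = 0.970, with 0.595% of genes called). From ZT12 to ZT18 it fell by 3.73 ± 0.33 on the log2 scale (adjusted p = 2.5e-05, with 4.85% of genes called). The difference of ZT0 from ZT18 was -1.61 ± 0.36 (log2, SE) and just missed the threshold of 0.05 (adjusted p = 0.0512, with 1.11% of genes called). It passed in 5 of the 6 other settings tried and when library ZT12 A or ZT12 B was left out, with adjusted p = 0.0172 and 0.0239. Neither of these libraries belongs to the times compared, and the difference did not pass in the other fits without a single library. The lowest ZT12 library, A, was also the one with the fewest cells, 710, and the highest median share of mitochondrial UMIs, 24.7%, and the part of these in its Dbp level was not tested. Without it the difference of ZT12 from ZT6 was 0.19 ± 0.21 (log2, SE, adjusted p = 0.804).

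Tef rose more slowly and stood at its highest at ZT12. Its level was 14.7, 19.2 and 14.9 CPM at ZT0, 69.9 and 59.9 at ZT6, 114, 122 and 104 at ZT12, and 39.3 and 32.3 at ZT18. The groups did not overlap at any pair of times, and they ranked ZT0, ZT18, ZT6, ZT12 from low to high. The share of all genes whose libraries separate like this was not counted, for Tef or for the other genes described this way. Tef rose by 1.91 ± 0.21 (log2, SE) from ZT0 to ZT6 (adjusted p = 5.4e-04) and stood 2.67 ± 0.20 above ZT0 at ZT12 (log2, SE, adjusted p = 4.9e-06, with 3.44% of genes called). It fell by 1.54 ± 0.22 on the log2 scale from ZT12 to ZT18 (adjusted p = 0.0012). The ZT12 to ZT18 calls of Dbp and Tef held when any 1 library was left out, ZT18 B included, with adjusted p of at most 0.00115 and 0.0481. Neighbours in the order of levels were less well separated. The difference of ZT12 from ZT6 was 0.76 ± 0.21 (log2, SE, adjusted p = 0.153), and that of ZT18 from ZT6 was -0.78 ± 0.23 (adjusted p = 0.0811, with 3.79% of genes called). The difference of ZT0 from ZT18 was -1.12 ± 0.22 (log2, SE, adjusted p = 0.0192), and this call was lost without library ZT0 C (adjusted p = 0.0657), ZT18 A (0.291) or ZT18 B (0.124).

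Hlf changed least. Its level was 40.7, 39.7 and 59.1 CPM at ZT0, 61.2 and 57.9 at ZT6, 108, 79.2 and 102 at ZT12, and 63.2 and 62.0 at ZT18. All 3 ZT12 libraries lay above the other 7, while library ZT0 C fell within the range of the ZT6 values and above ZT0 A and ZT0 B. Of the 6 pairs of times, only ZT12 against ZT0 passed the test for Hlf in the fit to all libraries, with a rise of 0.91 ± 0.19 (log2, SE, adjusted p = 0.0145). Without library ZT0 B that difference was 0.81 ± 0.20 (adjusted p = 0.0583). The difference of ZT6 from ZT0 was 0.28 ± 0.21 (log2, SE, adjusted p = 0.583) and that of ZT18 from ZT6 was 0.15 ± 0.23 (adjusted p = 0.784).

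**Figure D1:**
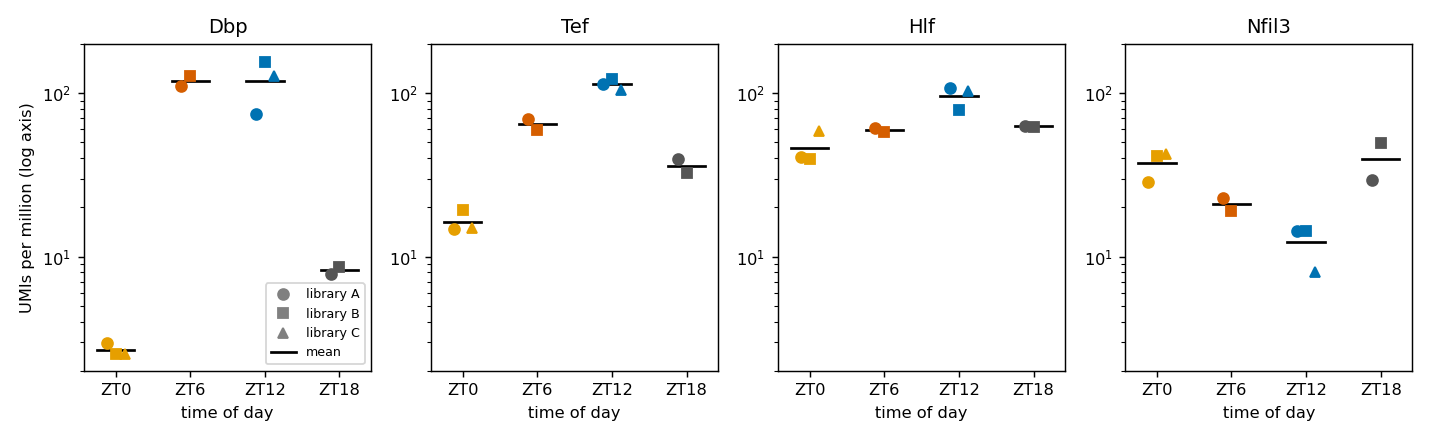
CPM (log axis) of Dbp, Tef, Hlf and Nfil3 in each of the 10 libraries by time of day; symbols mark library A, B or C and black bars the mean of a time. Dbp lies at 2.53 to 2.97 at ZT0 and at 74.2 to 155 at ZT12, Hlf spans 39.7 to 108 in all, and Nfil3 is lowest at ZT12.

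A cosine wave with a period of 24 h, fitted to all libraries at once, put these patterns on a common scale of amplitude (from mean to peak, log2) and peak time. The 3 members were called rhythmic, against 5.14% of the 8908 genes tested. Dbp had an amplitude of 3.24 ± 0.22 (log2, SE) with its peak at ZT 9.46 ± 0.26 h (SE) and a fitted peak-to-trough ratio of 89.4 (adjusted p = 3.8e-05, the smallest unadjusted p of all genes). Tef had an amplitude of 1.39 ± 0.10 with its peak at ZT 10.9 ± 0.33 h (adjusted p = 3.8e-05). Hlf had an amplitude of 0.46 ± 0.09 with its peak at ZT 12.6 ± 0.96 h (adjusted p = 0.0274). The median amplitude over all genes tested was 0.25. The Dbp and Tef calls held when any 1 library was left out, with adjusted p of at most 2.8e-04. The Hlf call was lost when any 1 library other than ZT0 C or ZT12 B was left out, with amplitudes from 0.40 to 0.54 and adjusted p from 0.0176 to 0.0865 over the 10 fits. Peak times come from 4 times sampled 6 h apart, and the fit assumes a single cosine.

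Whether the waves of the members differ from each other was tested on their log2 ratio within each library, which, apart from a small added constant, does not depend on how the library was scaled. The ratio of Dbp to Tef (log2, with 0.5 added to each level) was -2.13, -2.70 and -2.34 at ZT0 in libraries A, B and C, 0.65 and 1.08 at ZT6, -0.62, 0.34 and 0.29 at ZT12, and -2.25 and -1.85 at ZT18. It was above all other libraries at ZT6 and below -1.8 in each ZT0 and ZT18 library. Its 24 h wave had an amplitude of 1.89 (log2), and 25200 arrangements of the libraries over the times gave p = 0.00778 (exact two-sided permutation test, adjusted p = 0.0117 over 3 pairs). For the ratio of Dbp to Hlf the amplitude was 2.81 (log2, exact permutation p = 0.0125, adjusted p = 0.0125), from -3.87 ± 0.38 (SD, n = 3) at ZT0 to 0.98 ± 0.20 (SD, n = 2) at ZT6. For the ratio of Tef to Hlf it was 0.98 (log2, exact permutation p = 0.00206, adjusted p = 0.00619), from -1.48 ± 0.46 (SD, n = 3) at ZT0 to 0.24 ± 0.33 (SD, n = 3) at ZT12. The smallest p this design can give is 1.6e-04. The arrangements were drawn freely over all 10 libraries and do not keep the pairs of same-lettered ZT0 and ZT12 libraries, which deviated together. A wave in a ratio can come from unequal amplitudes, from unequal peak times or from both, and these were not tested separately.

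**Figure D2:**
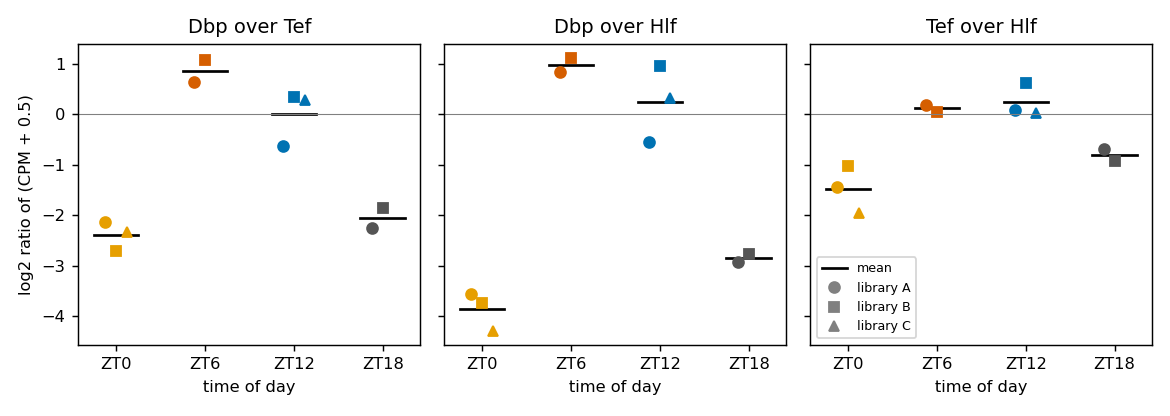
Log2 ratio of the levels of each pair of members (0.5 CPM added to each) in the 10 libraries by time of day; symbols mark library A, B or C, black bars the mean of a time, and the grey line equal levels. The Dbp to Hlf ratio spans the widest range, from -4.30 in library ZT0 C to 1.13 in library ZT6 B.

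Nfil3, the repressor that shares the D-box, ran in the opposite direction. Its level was 28.8, 41.5 and 42.5 CPM at ZT0, 23.0 and 18.9 at ZT6, 14.4, 14.4 and 8.03 at ZT12, and 29.6 and 49.3 at ZT18. All ZT0 and ZT18 libraries were above all ZT6 and ZT12 libraries. Its fitted peak was at ZT 21.9 ± 0.70 h with an amplitude of 0.96 ± 0.16 (log2, SE, adjusted p = 0.0109).

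Of 16 other clock genes listed, 14 passed the filter and 11 of them were rhythmic, against 5.14% of all genes, with a median amplitude of 1.26 (log2) against 0.25 over all genes. Per2 (adjusted p = 0.0536), Rora and Bhlhe40 did not pass, and 6 of the 11 peaked between ZT6 and ZT12, as Dbp and Tef did. Per3, a period gene, had an amplitude of 1.87 with its peak at ZT 11.1, and Nr1d2 (REV-ERB beta, a repressor of Bmal1) an amplitude of 1.83 with its peak at ZT 10.2. Nr1d1 (REV-ERB alpha) had an amplitude of 3.37 and a fitted peak at ZT 7.03 ± 0.27 h, before that of Dbp. These Nr1d1 values rest on 32, 259, 73 and 2 UMIs in all at ZT0, ZT6, ZT12 and ZT18. Usp2, a clock-controlled deubiquitinase, had an amplitude of 1.97 and peaked at ZT 12.2, and Ciart, a repressor of CLOCK and BMAL1, an amplitude of 2.71 at ZT 10.5. Arntl, which encodes BMAL1, had an amplitude of 2.43 and peaked at ZT 21.6 ± 0.33 h, beside Nfil3.

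Of 16 genes listed as targets of PAR bZIP factors, 15 passed the filter and 4 were rhythmic, against 5.14% of all genes, with a median amplitude of 0.70 (log2) against 0.25 over all genes. The 4 were Por, Alas1, Acot3 and Cyp7a1. Por, the electron donor of microsomal cytochromes P450, averaged 67.2 ± 28.6, 139 ± 31.3, 383 ± 133 and 105 ± 6.61 CPM (SD, n = 3, 2, 3 and 2) in the order ZT0, ZT6, ZT12, ZT18. It peaked at ZT 11.5 ± 0.60 h with an amplitude of 1.20 (adjusted p = 0.0018). Alas1, the rate-limiting enzyme of haem synthesis, averaged 51.0 ± 9.96, 103 ± 67.6, 258 ± 29.3 and 150 ± 11.8 CPM at the same times. It peaked at ZT 13.0 ± 0.64 h with an amplitude of 1.14 (adjusted p = 0.0043). Acot3, an acyl-CoA thioesterase, had an amplitude of 1.62 and peaked at ZT 10.1 (adjusted p = 0.0218), on 18, 47, 83 and 17 UMIs in all at the 4 times. Cyp7a1, the rate-limiting enzyme of bile acid synthesis, had an amplitude of 1.02 and peaked at ZT 13.3 ± 1.04 h (adjusted p = 0.0431). Nr1i3 (CAR, a xenobiotic receptor) had an amplitude of 0.76 with adjusted p = 0.0703, and Cyp2a5, a cytochrome P450, one of 0.79 with adjusted p = 0.237. Without library ZT12 C only 2 of the 15 passed, and with the index number as a block 7 did.

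**Figure D3:**
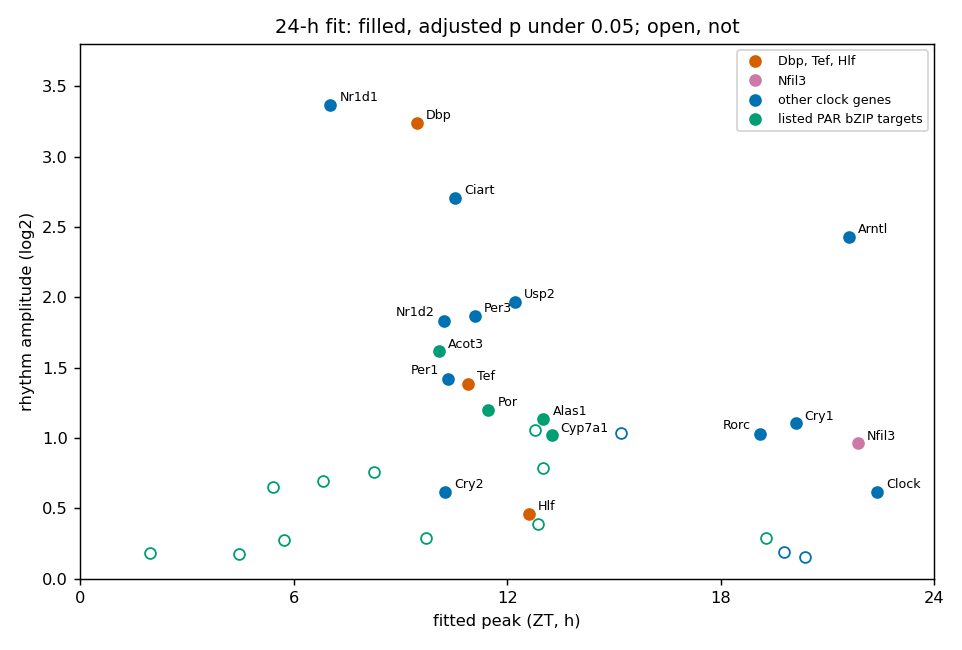
Amplitude of the fitted 24 h wave (log2) against its peak time (ZT, h) for the members, Nfil3, 14 other clock genes and 15 listed targets; filled points passed the rhythm test and open points did not. Dbp and Tef lie among the clock genes that peak between ZT6 and ZT12, and Hlf lies lower, at an amplitude of 0.46.

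The genes whose levels ran most like each member were ranked by Pearson's r of log2(CPM + 1) over the 10 libraries, among the 8908 genes tested. These r share the libraries and times and are descriptions. For Dbp they included Dcun1d4 (r = 0.971), Nr1d2 (0.970), Pcsk4 (0.962) and Abcg5 (0.961). Dcun1d4 acts in cullin neddylation, Pcsk4 is a proprotein convertase and Abcg5 a sterol transporter. Abcg5 averaged 11.4, 39.4, 40.5 and 12.6 CPM at ZT0, ZT6, ZT12 and ZT18, high at both ZT6 and ZT12 as Dbp was, with a smaller range. For Tef they included Per3 (r = 0.986), Nr1d2 (0.981), the coactivator Ppargc1a (0.971) and the acetyl-CoA thioesterase Acot12 (0.962). For Hlf they were the purinergic receptor P2ry1 (r = 0.984), the ubiquitin-like Ubl3 (0.975), the chromatin remodelling ATPase Smarca2 (0.968), the transporter Slc16a12 (0.956) and the cyclin Ccnd3 (0.954). Slc16a12 averaged 32.2, 35.5, 82.0 and 37.5 CPM at the 4 times, high at ZT12 alone. Tef ranked 7 among the genes most like Dbp (r = 0.939), while Hlf ranked 634 (r = 0.695).

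To place cells along the lobule, each cell was ordered within its library by 8 periportal landmark genes against 8 pericentral ones, the order was cut into 3 zones of equal cell number, and the outer 2, periportal and pericentral, were compared. Periportal hepatocytes receive blood first and pericentral ones last. Scores from the odd-numbered and from the even-numbered landmarks went together, with a Pearson's r of 0.683 to 0.847 across the cells of a library. None of the members differed between the outer zones by the test, while 24.8% of the 8923 genes tested did. Dbp averaged 61.0 ± 63.1 CPM in pericentral and 62.7 ± 64.5 in periportal zones (SD, n = 10, most of it the spread between times), and was higher in the periportal zone in 7 of 10 libraries. The difference was 0.18 ± 0.11 (log2, SE, adjusted p = 0.248). For Tef it was 0.13 ± 0.10 (adjusted p = 0.422), higher periportally in 6 of 10 libraries, and it was -0.09 in cells with at least 3000 UMIs. Hlf leaned the other way, averaging 74.4 ± 28.5 CPM pericentrally and 60.8 ± 22.7 periportally (SD, n = 10), and was higher pericentrally in 9 of 10 libraries. The Hlf difference was -0.20 ± 0.09 (log2, SE, adjusted p = 0.130). It passed the test without library ZT18 A, the only library in which Hlf was higher periportally (-0.27, adjusted p = 0.0210), without both ZT18 libraries (-0.29, adjusted p = 0.0230), between the outer groups of an order cut into 5 (-0.32, adjusted p = 0.0267), and when scaled by library size alone (-0.30, adjusted p = 0.0192). That last scaling moved the median of all genes between the zones from -0.01 to -0.11 (log2). The CPM means and the counts of libraries in this paragraph are also scaled by total UMIs alone, so they carry the same shift. The share of all genes with such counts of libraries was not counted. The Hlf difference did not pass in 7 of the 10 other settings. It also did not pass in the other fits without a single library, where it was as small as -0.12, with adjusted p up to 0.388. Periportal cells had the higher median mitochondrial share of UMIs in every one of the 10 libraries, and its part in these differences was not tested.

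No member's daily wave passed the test of dependence on lobule position. Dbp peaked at ZT 9.48 ± 0.27 h in the pericentral, 9.47 ± 0.27 h in the middle and 9.04 ± 0.26 h in the periportal zone, with amplitudes of 3.41, 3.11 and 3.22 (log2). Tef had amplitudes of 1.17 ± 0.13, 1.51 ± 0.13 and 1.51 ± 0.14 in the same order, and Hlf 0.42 ± 0.13, 0.49 ± 0.12 and 0.54 ± 0.10. The test of whether the wave depends on the zone gave adjusted p = 0.662 for Dbp, 0.795 for Tef and 0.895 for Hlf, and called 0.0448% of the genes tested. The unadjusted p for Dbp was 0.0113 in this test, and 546 of the 8923 genes tested had an unadjusted p under 0.05. Zone differences of Dbp at single times, given next, were not tested. At ZT6 the periportal zone had more Dbp in both libraries (131 against 96.8 CPM in A, 145 against 123 in B). At ZT12 it had less in A (63.2 against 84.9) and B (138 against 163), and slightly more in C (124 against 121). Over 8 layers, Dbp at ZT6 was lowest in layer 3 at 102 ± 3.94 CPM and highest in layer 7 at 154 ± 5.13 (SD, n = 2), where layer 1 is the most central.

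**Figure D4:**
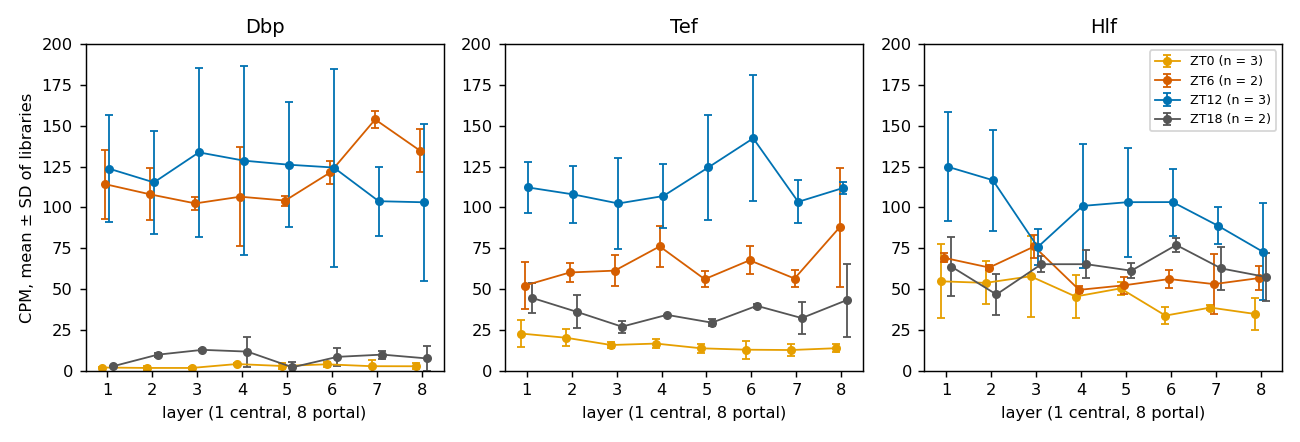
CPM of Dbp, Tef and Hlf in 8 layers of equal cell number from central (1) to portal (8); points are means and bars SDs of the libraries of each time. The times separate in every layer for Dbp except ZT6 from ZT12 and ZT0 from ZT18, and the Hlf profile at ZT12 runs from 125 ± 33.3 in layer 1 to 72.9 ± 29.7 in layer 8.

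Most of the listed target genes were zonated. Of 15 tested, 14 were higher pericentrally, against 12.8% of all genes, and 0 periportally, against 12%, with a median difference of -1.14 (log2) against -0.01 over all genes. Cyp7a1 was 12.8 times, Nr1i3 3.54 times and Por 2.21 times higher in the pericentral zone, and Alas1 1.16 times (adjusted p = 3.7e-19, 2.0e-17, 2.8e-14 and 0.0194). Cyp2a5 was 31.6 times higher pericentrally (adjusted p = 5.7e-22). The exception was Cyp2a4, at 0.91 ± 0.38 (log2, SE, adjusted p = 0.0789), which was also the only listed gene with a zone-dependent wave. Cyp2a4 and Cyp2a5 are near-identical copies between which reads may be split, so both values are uncertain. Among the other clock genes, 3 of 15 were higher periportally (Cry1, Rora and Bhlhe40), against 12% of all genes, and 0 pericentrally, against 12.8%, so that a count this small lies near the background.

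Within a library, the spread of Dbp over cells was described from sparse counts. To compare cells of unequal depth, each was thinned to 1000 UMIs, and no cell was left out because the shallowest had 1048. The share of cells with a Dbp UMI was then 10.4% and 11.6% at ZT6 and 8.73%, 14.3% and 13.2% at ZT12, against 18.8%, 19.2%, 13.7%, 34.8% and 20.02% before thinning. At ZT0 only 1 to 9 and at ZT18 only 11 or 12 Dbp UMIs were left per library, too few to describe a spread. The files hold hepatocytes and no cell type that should lack Dbp, so the share that free RNA in droplets would give was not measured. At ZT0 0.594% to 0.817% of unthinned cells had a Dbp UMI. The 95% interval (exact Clopper-Pearson, counting error only) for library ZT12 B was 12.9% to 15.7% after thinning.

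The variance of Dbp UMIs over cells divided by their mean was 1.04 and 1.10 at ZT6 and 0.944, 1.02 and 1.04 at ZT12, where a Poisson count gives 1. The median over the 2181 to 2516 genes with at least 0.05 UMIs per cell in these libraries was 1.01 to 1.03. Dbp lay above its library's median in 4 of the 5 libraries and below it in ZT12 A, which had 63 thinned Dbp UMIs. At these means of 0.089 to 0.156 Dbp UMIs per cell, the ratio and the share of zeros stay near the Poisson values even where cells differ, so they say little about the spread. Cells with no Dbp UMI made up 89.6%, 88.4%, 91.3%, 85.7% and 86.8% of the 5 libraries, and a Poisson count of the same mean gives 89.4%, 87.9%, 91.5%, 85.6% and 86.6%. Cells with 2 or more Dbp UMIs made up 0.744% and 1.18% at ZT6 (Poisson 0.578% and 0.767%) and 0.141%, 1.26% and 1.14% at ZT12 (Poisson 0.371%, 1.09% and 0.942%). The squared coefficient of variation beyond Poisson counting was 0.54 ± 0.30 (SD, n = 2) at ZT6 and -0.08 ± 0.48 (SD, n = 3) at ZT12. Among the genes measured in each library, Dbp ranked at percentiles 78.1 and 89.4 by this measure at ZT6 and 9.30, 54.3 and 70.3 at ZT12. At ZT6 it was 0.48 without thinning, 0.52 without the 5% of cells with the most UMIs, and 0.12 when cells with at least 2000 UMIs, 988 and 417 of them, were thinned to 2000. Within the 3 zones the mean of this measure was 0.50 at ZT6 and -0.11 at ZT12.

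**Figure D5:**
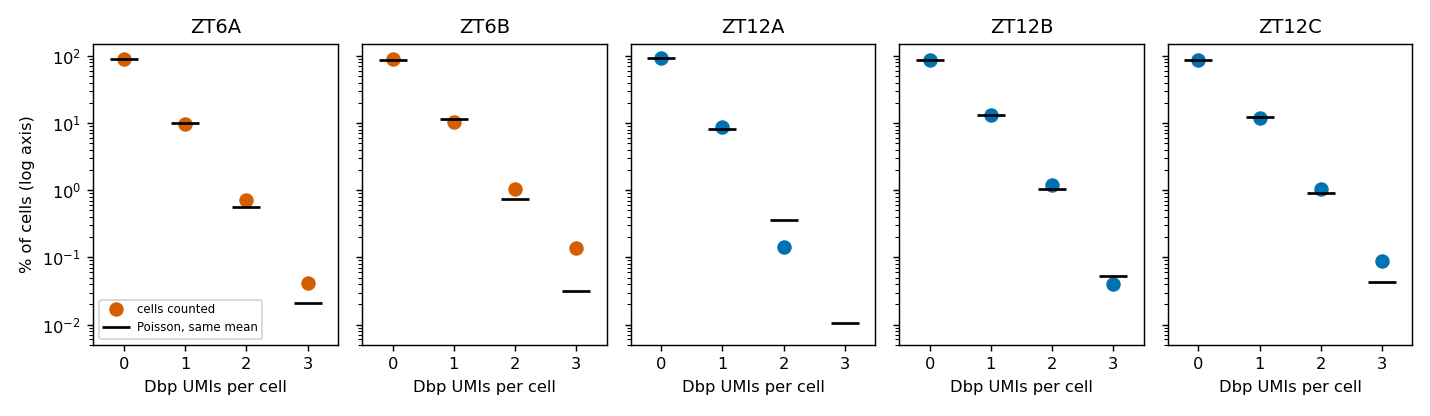
Share of cells (log axis) with 0 to 3 Dbp UMIs after thinning to 1000 UMIs in each ZT6 and ZT12 library; points are cells counted and bars a Poisson count of the same mean, and a class with no cell has no point. The points lie on the bars at 0 and 1 UMI, and the classes of 2 and 3 UMIs hold 0 to 30 cells each.

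At ZT6 and ZT12 the Tef and Hlf counts of cells with a Dbp UMI, thinned to 1000 UMIs, were compared with those of cells without one. The comparison was made within each zone of the lobule, and the zones were combined into 1 ratio per library. The ratio for Tef ranged from 0.856 to 2.03 over the 5 libraries with a median of 1.05, on 97 Tef UMIs in cells with Dbp, and that for Hlf from 0.663 to 1.34 with a median of 1.13, on 80 UMIs. Both were above 1 in 4 of 5 libraries, with Tef in ZT12 A at 1.002. Without regard to zone, the mean Tef count in ZT12 A was 0.1290 in cells with Dbp and 0.1296 in cells without. The plain quotient of these means lies below 1, so the side of 1 on which Tef falls in ZT12 A depends on the zones. The ratios of Per3, Ciart and Fos were also above 1 in 4 of 5, with a median of 1.36 for Fos. Those of Clock and Per1 were above 1 in 0 of 5. The share over all genes was not counted. Counts this sparse support no statement beyond these values.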

How the data were processed

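The authors deposited 10 tables of UMI counts, 1 per library, with genes in rows and cells in columns, made with Cell Ranger (version not given) per the submitters' processing notes, which name the builds hg19 and mm10 without their roles. How the authors chose cells, and whether they removed doublets, is not given in the sources used here; no doublets were removed here. Tables were read as deposited; 1 gene name occurs in 2 rows, which were kept apart. Levels are CPM, UMI counts scaled to a library total of 1000000.

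Counts were summed per library (time) or per library and zone of the lobule and tested with edgeR 4.0.16 in R 4.3.3 (TMM scaling, quasi-likelihood F-tests, mean of at least 3 CPM, Benjamini-Hochberg adjustment over all genes, threshold 0.05); the zone model had library as a block. The rhythm test used cosine and sine terms of 24 h, 2 coefficients together. Alternatives were DESeq2 1.42.0, library size alone, no filter, blocks, other cuts of the cell order and leaving out each library. Scripts were tested on simulated data. Named genes were the members, Nfil3, up to 6 genes per list with the smallest adjusted rhythm p, and the 5 genes most like each member, of which 1 is not reported here; other names were chosen after their values were seen. Members and lists were chosen with earlier results of these data known. Same-lettered ZT0 and ZT12 libraries, which share an index number, deviated together (r = 0.24, 0.43 and 0.48 over genes). An alternative fit had the letter as a block over all 10 libraries (replicate block), so these pairs were not fitted on their own in it. Letters of the other times did not pair (r from -0.04 to 0.11). No 2 libraries of a time held identical values.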

Additional observations from a re-analysis of the deposited data

Results flagged for a closer look

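Tef was lower in the periportal than in the pericentral zone in all 3 ZT0 libraries (-0.24, -0.95 and -0.52, log2) and higher in both ZT6 libraries (0.50 and 0.25) and in both ZT18 libraries (0.04 and 0.20). The mean zone difference at ZT0 was thus lower by 0.95 than at ZT6 (-0.948, log2) and lower by 0.69 than at ZT18 (-0.693). These differences between single times were not tested. The test over all 4 times, whether the wave of Tef depends on the zone, did not pass (adjusted p = 0.795, edgeR). At ZT0 the Tef values rest on 24 to 61 UMIs per zone and library.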

How the results depend on the processing

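Of 566 alternative values, 531 kept their direction and their side of the threshold or, without a test, stayed within a limit. A further 14 lost a call, 13 gained one, 5 changed direction and 3 moved beyond their limit. The limit was a fixed ratio for counts of rhythmic genes and the spread between libraries for the cell-to-cell spread of Dbp. Wave amplitudes are positive by construction, so only their side of the threshold could change. The difference of ZT12 from ZT6 in Dbp changed direction with library size alone (0.0229), with the index number as a block (0.268) and without ZT6 B (0.125) or ZT12 A (0.190), over a range of -0.339 to 0.190 when single libraries were left out. The difference of ZT0 from ZT18 in Dbp passed with library size alone (-1.618), DESeq2 (-1.622), no filter (-1.587), the replicate block (-1.591) and without mitochondrial, Mup and haemoglobin genes (-1.613), and ranged from -1.75 to -1.52 without single libraries. With the replicate block, Tef passed for ZT12 against ZT6 (0.865) and ZT18 against ZT6 (-0.785). Same-lettered libraries of these times share only a letter, except ZT6 B and ZT12 B. Those also share an index number but did not deviate together (r = 0.04 over genes). Beside these Tef differences and the Dbp difference above, the block changed no call, that of ZT12 against ZT0 included. Without the 5% of cells with the most UMIs the Tef difference of ZT0 from ZT18 was -1.002 (adjusted p = 0.0519), and it ranged from -1.26 to -0.9996 without single libraries. The Hlf rhythm was 0.487 without both ZT18 libraries (adjusted p = 0.0638) and 0.402 to 0.537 without single ones. The Hlf difference of ZT12 from ZT0 ranged from 0.797 to 1.06. The zone difference of Hlf passed with library size alone (-0.296), between the outer groups of an order cut into 5 (-0.321) and without both ZT18 libraries (-0.288), with -0.272 to -0.123 without single libraries; that of Tef was -0.0934 in cells with at least 3000 UMIs. Rhythmic listed targets numbered 7 with the index number as a block and 2 to 5 without single libraries. The excess squared coefficient of variation of Dbp at ZT6 was 0.119 at 2000 UMIs per cell, in fewer cells. The cause was not tested for any of these.

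Library size alone moved the median of all genes by over 0.1 (log2) from ZT12 to ZT18 (-0.17) and from ZT0 to ZT12 (0.13). Leaving out single libraries for the cell-to-cell spread of Dbp was added after seeing the data. Depth limits Dbp at ZT0 and ZT18 (15 to 32 UMIs per library) and every value per cell.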
